A study of Mus musculus with 12 samples.

Results

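The endoplasmic reticulum chaperone and folding genes are 34 genes whose products fold, modify, check, export or discard proteins in the endoplasmic reticulum, together with the sensors and the transcription factor that adjust this machinery. They were taken from a list of names, and their probes were found through the RefSeq transcript that the array files give for each probe. All 34 had a probe, 38 probes in all, on an array of 37246 probes. The data are total RNA from the liver of 6-week-old male wild-type C57BL/6 mice, taken at 0, 1.5, 12 or 24 h after partial hepatectomy, the surgical removal of 2 of 3 parts of the liver. The organ regrows by division of the cells that remain. Each group held 3 mice, 1 mouse per array and 12 arrays in all, hybridised in 1 colour (Cy3) to an Arraystar mouse lncRNA array that also carries probes for coding genes. The 0 h livers are the only controls; the series has no group with a sham operation, so effects of the operation itself or of the hour of day cannot be told apart from those of tissue removal.

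Proteins for secretion and for membranes enter the endoplasmic reticulum through the Sec61 channel, lose their signal peptide to signal peptidase, and fold with the help of Hsp70 and Hsp90 chaperones, lectin chaperones and enzymes that form disulfide bonds. Those that fail are drawn back into the cytosol and degraded, and those that succeed leave in COPII vesicles. When unfolded protein builds up, the sensors Ern1 (IRE1), Eif2ak3 (PERK) and Atf6 start the unfolded protein response: Atf6 is cut to give a transcription factor, Ern1 splices Xbp1 mRNA so that it encodes an active one, and Eif2ak3 slows translation. Hepatocytes secrete albumin, clotting factors, complement and lipoproteins, and so hold a large endoplasmic reticulum. In whole tissue, a change in the number of cells of a type and a change in RNA per cell cannot be told apart.

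Values are log2 of each spot's processed signal minus the 75th percentile of that array, so that 1 unit is a doubling of signal; levels of different genes are not compared, since probes differ in brightness. A gene is described by its brightest probe. A difference is called where the adjusted p of limma (Benjamini-Hochberg over 31172 probes, two-sided) is under 0.05, and only called differences are said to have risen or fallen. Errors on fold changes are standard errors of that fit, which takes 1 spread over all 4 groups (8 residual degrees of freedom), with n = 3 arrays a group unless stated. Of the 34 genes, 32 were tested. The other two, Dnajb11, a co-chaperone of Hspa5, and Manf, a small protein kept in the endoplasmic reticulum and secreted under stress, were well above background on 0 and 2 of the 12 arrays. Their probes therefore give no usable level, and fewer than 3 arrays passed for either.

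One array stood apart. The 24 h replicate 2 array was the only one on its slide (arrays that share a scan time are taken here as 1 slide); its 75th percentile signal was 6210, against 443 to 599 on the other 11, and 540 of its spots were outliers, against 19 to 40. Its values correlated at 0.912 and 0.906 with the other 24 h arrays, which correlated at 0.986 with each other. Members called at 24 h are therefore given with and without it. Slides followed time points closely: slide 1 held the 0 h arrays and 1.5 h replicate 1, slide 2 the other 1.5 h arrays and 12 h replicates 1 and 2, and slide 3 held 12 h replicate 3 with 24 h replicates 1 and 3. No 12 h or 24 h array shared a slide with a 0 h array, so every comparison of these times with 0 h also compares slides. The fit used for the calls has no slide term. In a fit with slide as a random term, the estimated correlation within a slide was 0.853. The share of spots well above background was 62.8% to 85.4%. The median log2 change over all 31172 probes was 0.41 from 0 to 12 h and -0.15 from 0 to 24 h; over the 19897 coding probes it was 0.24 and -0.06.

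Of the 32 tested genes, 15 rose against 0 h by 12 h, by 24 h or at both times. At 1.5 h no member was called by limma (over all probes 0.0225% were called, and 0.0302% of coding probes were called higher). An unadjusted p under 0.05 was reached by 1 of 32 members and by 1999 of 31172 probes. By 12 h, 10 of 32 members had risen and 0 had fallen, against 7.26% of coding probes called higher (6.93% of all probes) and 10.3% called lower. By unadjusted p under 0.05, 15 members were higher and 1 lower, and 10081 of 31172 probes passed that limit in either direction. The 10 were the chaperones Hspa5 and Hspa13, the Hspa5 partners Dnajb9 and Sdf2l1, Creld2, the degradation genes Edem1, Syvn1 and Derl1, the transcription factor Xbp1 and the COPII coat gene Sec24d. At 24 h, 10 had risen and 0 had fallen, against 3.34% of coding probes called higher (2.83% of all probes) and 2.41% called lower. These were Hspa5, Hspa13, Dnajc3, Sdf2l1, Pdia4, Calr, Creld2, Sel1l, Syvn1 and Derl3. Hspa5, Hspa13, Sdf2l1, Creld2 and Syvn1 were called at both times, so that 15 members were called at one time or the other and 17 at neither. In the fit without 24 h replicate 2, 13 were called higher at both times and 19 at one or the other. The 2 comparisons share the 0 h arrays.

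The size of the change over the whole list was moderate. Against 0 h, the median log2 change of the 32 members came to -0.16 after 1.5 h, to 0.56 after 12 h and to 0.77 after 24 h, and the range at 24 h ran from -0.38 for Atf6 to 6.15 for Derl3. For the coding probes the medians were 0.07, 0.24 and -0.06. All arrays of 12 h lay above all arrays of 0 h for 17 members and below for 5, against 35.9% and 26.1% of coding probes; at 24 h they lay above for 18 and below for 0, against 15.7% and 13.2%. The highest of the 4 group means was at 24 h for 17 members, at 12 h for 13, at 0 h for 2 (Ern1 and Atf6) and at 1.5 h for 0. The median of the members' deviations from their 0 h means lay between -0.18 and -0.10 on the 1.5 h arrays, between 0.49 and 0.68 on the 12 h arrays and between 0.76 and 1.01 on the 24 h arrays.

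**Figure D1:**
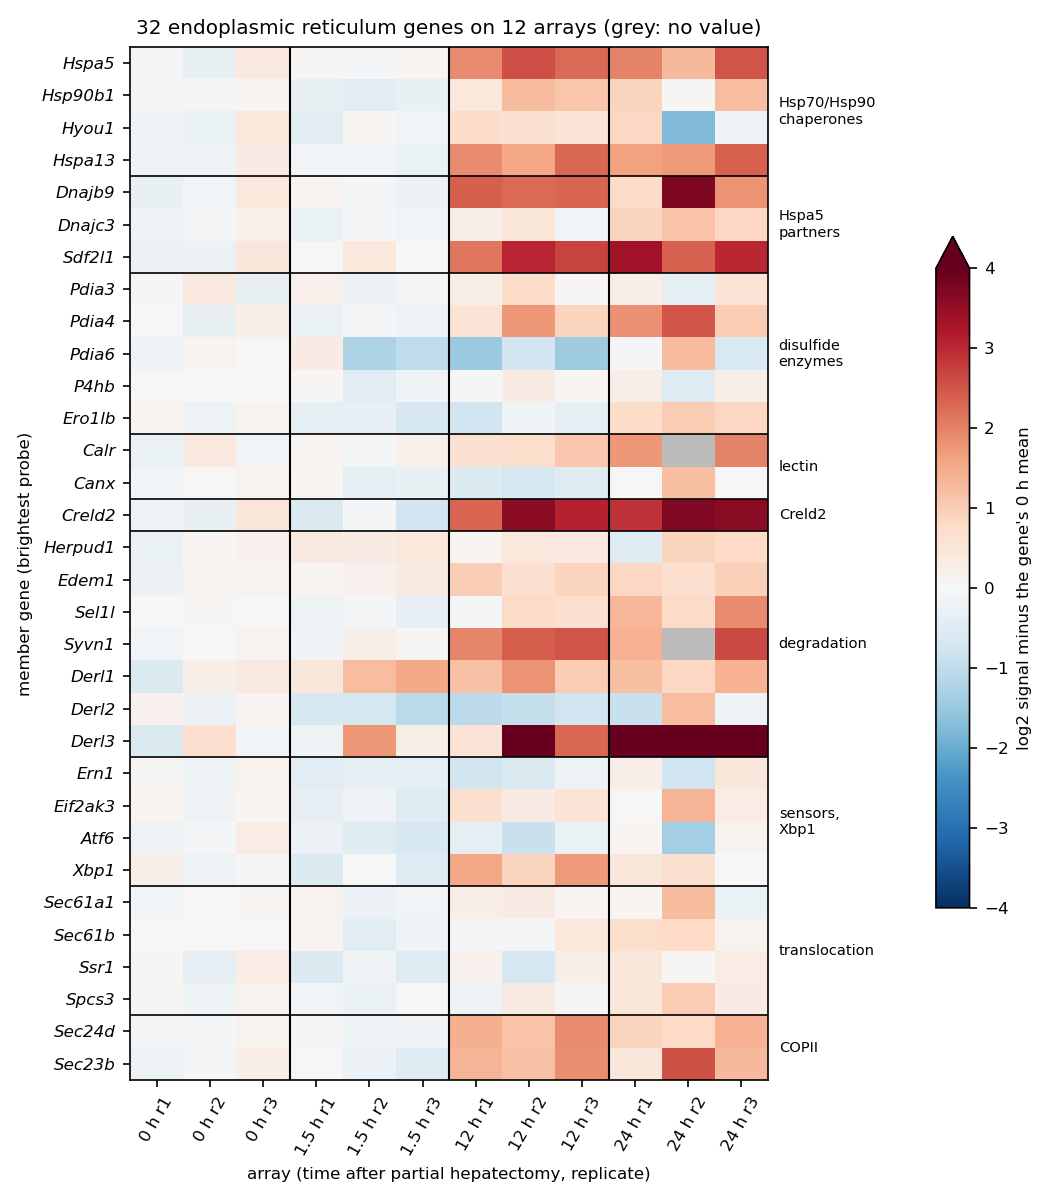
Heat map of the 32 tested members (rows, grouped by role) on the 12 arrays (columns), as log2 signal minus the gene's mean over the 3 arrays of 0 h; the colour scale ends at 4, and grey marks the 2 spots without a value. The 0 h and 1.5 h columns are pale, and the 12 h and 24 h columns are red for Hspa5, Hspa13, Sdf2l1, Creld2 and Syvn1, while the rows of Pdia3, P4hb and Ssr1 stay pale.

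These counts depend on a few choices. Without 24 h replicate 2, 16 members had risen and 4 had fallen at 12 h (against 28.4% and 20.6% of coding probes) and 16 had risen at 24 h (against 10.2%); all 10 calls at each time were kept. The 4 that fell at 12 h in that fit were Pdia6, Canx, Derl2 and Ern1. With slide as a fixed term, 3 members were called higher at 12 h (Hspa5, Dnajb9 and Sec24d, against 2.13% of all probes) and 0 at 24 h (against 0.173%), a fit in which a single 1.5 h array links the 0 h slide to the others. Their median changes in that fit were 0.58 and 0.78, with coding medians of 0.07 and 0.03. Only 1 member, Sdf2l1, was called at 24 h with slide as a random term (against 0.597% of all probes called higher), and 2, Creld2 and Derl3, in a fit of the 0 h and 24 h arrays alone (against 0.209%). Leaving out 0 h replicate 2 left 6 members called at 12 h, Hspa5, Hspa13, Sdf2l1, Creld2, Syvn1 and Sec24d (against 3.34% of all probes called higher), and these 6 were called whichever single array was left out. Leaving out 0 h replicate 1 or 2 left 5 called at 24 h, Hspa13, Sdf2l1, Calr, Creld2 and Derl3 (against 0.767% and 0.953%). Of these, Hspa13, Sdf2l1, Creld2 and Derl3 were likewise called whichever single array was left out. Calr had no value on 24 h replicate 2, so leaving out another 24 h array left it a single 24 h value. With quantile normalization in place of the 75th percentile, 12 members rose and 2 (Ern1 and Atf6) fell at 12 h, against 8.31% and 11.7% of all probes.

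The comparison of 12 h with 1.5 h can be made inside 1 slide. Over all arrays, 10 members rose and 0 fell between these times (against 4.01% of coding probes called higher and 6.4% lower; without 24 h replicate 2, 14 and 0, against 10.8%), namely Hspa5, Hsp90b1, Hspa13, Dnajb9, Sdf2l1, Creld2, Syvn1, Xbp1, Sec24d and Sec23b. On slide 2 alone, with 2 arrays of each time, 8 of them rose (against 4.62% of all probes): Hspa5, Hspa13, Dnajb9, Sdf2l1, Creld2, Syvn1, Sec24d and Sec23b. Creld2 was 3.36 ± 0.51 log2 units higher at 12 h within that slide (adjusted p = 0.0359), Sdf2l1 2.38 ± 0.36 (0.0358) and Hspa5 2.23 ± 0.27 (0.0274).

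**Figure D2:**
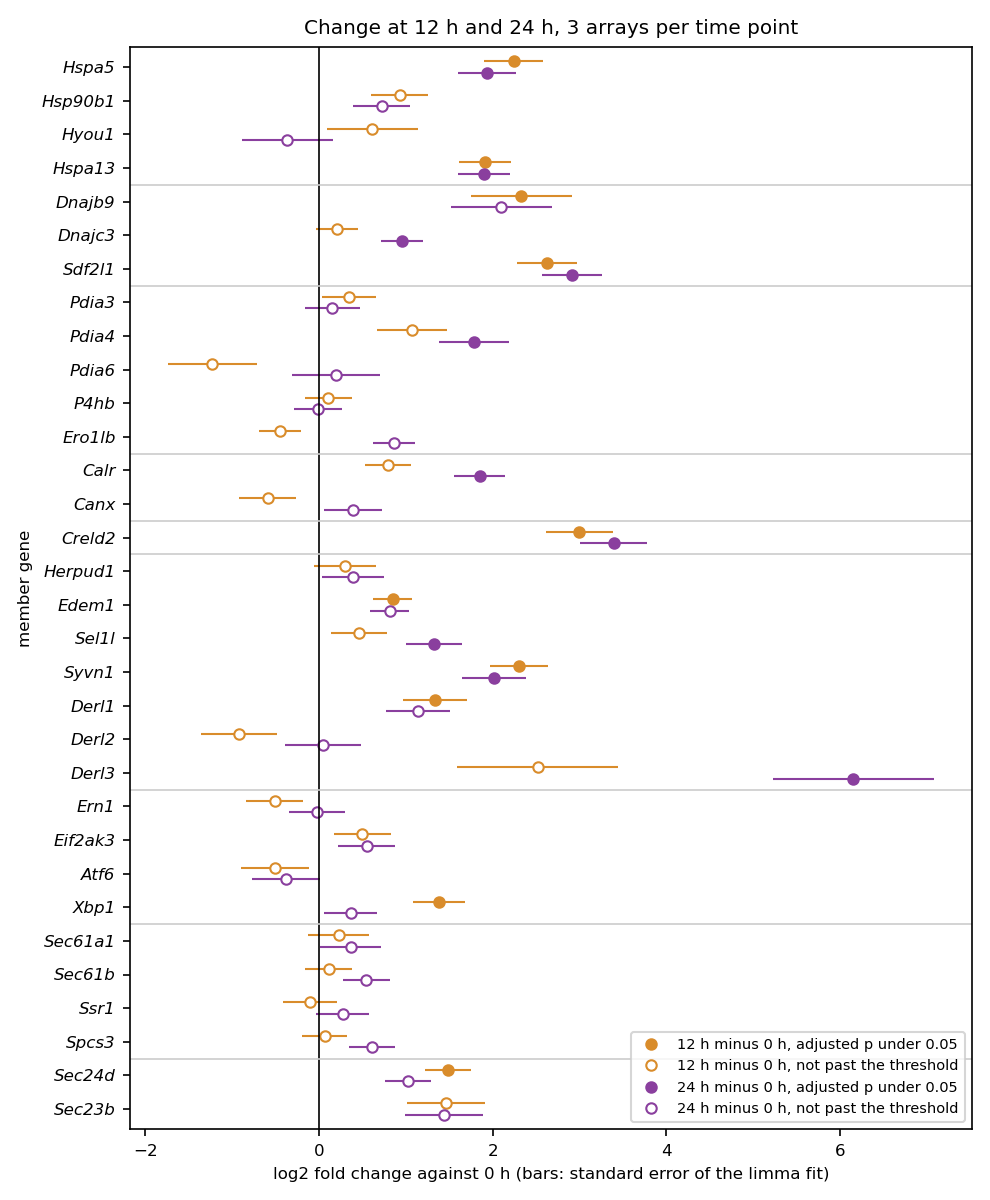
Log2 change of each tested member against 0 h at 12 h (orange) and 24 h (purple), with standard errors of the limma fit; filled points passed the threshold. Derl3 lies farthest right at 24 h (6.15), followed by Creld2 (3.40) and Sdf2l1 (2.91), and the translocation genes Sec61a1, Sec61b, Ssr1 and Spcs3 lie within 0.61 of 0.

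Several members share a sequence element before their start. The endoplasmic reticulum stress element, ERSE, is the sequence through which Atf6 and Xbp1 are known to act, with the factor NF-Y on its CCAAT part. It was searched as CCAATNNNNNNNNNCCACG on both strands, with exact letters, in the RefSeq promoters (GRCm38.p6), windows of 300 bases from 250 before to 50 after a gene's start. The table held a promoter for 27 of the 34 members; Hyou1, Hspa13, Manf, Derl1, Atf6, Sec61a1 and Spcs3 are not in it. ERSE stood in 10 of these 27 members and in 37 of the 27025 genes searched (0.137%). By promoter, it stood in 0.119% of all 32851 (39). Each site is printed 5′ to 3′ on the strand that reads CCAAT first, with the fixed letters in capitals and the free bases between them in lower case, since it is the sequence these 10 genes have in common.
Calr, chr8:84847075-84847093, plus strand: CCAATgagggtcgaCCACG
Canx, chr11:50325800-50325818, minus strand: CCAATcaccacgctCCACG
Creld2, chr15:88819520-88819538, minus strand: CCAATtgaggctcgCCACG
Derl3, chr10:75893242-75893260, minus strand: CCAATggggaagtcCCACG
Dnajc3, chr14:118937827-118937845, plus strand: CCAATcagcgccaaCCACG
Ero1lb, chr13:12565682-12565700, minus strand: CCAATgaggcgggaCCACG
Hsp90b1, chr10:86705533-86705551, plus strand: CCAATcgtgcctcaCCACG
Hsp90b1, chr10:86705638-86705656, minus strand: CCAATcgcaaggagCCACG
Hspa5, chr2:34772025-34772043, plus strand: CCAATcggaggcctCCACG
Pdia6, chr12:17266491-17266509, plus strand: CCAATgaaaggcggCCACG
Syvn1, chr19:6046532-6046550, plus strand: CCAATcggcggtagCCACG

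Hsp90b1 held 2 matches in opposite orientations and the other 9 genes held 1. The match lay closest to the start in Syvn1 (its first base along the gene at position -44, counted from the start) and in Hspa5 (-65), and farthest in Hsp90b1 (-212) and Ero1lb (-201). A shorter variant, ERSE-II, searched as ATTGGNCCACG, stood in Dnajb11 and Herpud1 and in 0.0365% of all promoters (0.0444% of genes). The core of the element that spliced Xbp1 binds, TGACGTGG, stood only in Sec24d among the 27 (0.676% of all promoters, 0.714% of genes). The ATF4-type element TGATGCAA stood only in Herpud1 (0.895% and 1.03%), and TGACGTCA in 0 of the 27 (1.79% and 2.03%). The CCAAT box alone, which ERSE contains, stood in 23 of 27 members, in 41.1% of genes and in 37.4% of all promoters. A match describes letters only; binding was not measured.

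The 250 bases before the start are shown for 4 of the 10, each on its gene's strand with the fixed letters of ERSE in capitals (a match on the opposite strand reads CGTGG first): Hspa5, the main Hsp70 chaperone; Creld2 and Derl3, which changed most; and Hsp90b1, which has the pair of sites and was not called against 0 h.
Hspa5, chr2:34771840-34772089, plus strand: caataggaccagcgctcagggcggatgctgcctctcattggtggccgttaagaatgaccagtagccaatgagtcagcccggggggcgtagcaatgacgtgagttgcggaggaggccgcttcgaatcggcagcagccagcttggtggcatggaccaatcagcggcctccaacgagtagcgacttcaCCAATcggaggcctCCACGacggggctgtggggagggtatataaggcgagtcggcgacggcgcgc
Creld2, chr15:88819396-88819645, plus strand: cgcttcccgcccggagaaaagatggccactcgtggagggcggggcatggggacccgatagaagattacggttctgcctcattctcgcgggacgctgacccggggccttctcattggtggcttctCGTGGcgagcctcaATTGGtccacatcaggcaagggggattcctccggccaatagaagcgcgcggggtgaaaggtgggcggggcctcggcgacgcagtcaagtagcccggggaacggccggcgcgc
Derl3, chr10:75893148-75893397, plus strand: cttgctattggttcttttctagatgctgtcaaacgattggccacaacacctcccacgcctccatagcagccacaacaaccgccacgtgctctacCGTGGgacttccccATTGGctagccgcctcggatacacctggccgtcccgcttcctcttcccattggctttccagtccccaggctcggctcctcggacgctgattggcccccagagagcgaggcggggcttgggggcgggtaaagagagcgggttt
Hsp90b1, chr10:86705445-86705694, minus strand: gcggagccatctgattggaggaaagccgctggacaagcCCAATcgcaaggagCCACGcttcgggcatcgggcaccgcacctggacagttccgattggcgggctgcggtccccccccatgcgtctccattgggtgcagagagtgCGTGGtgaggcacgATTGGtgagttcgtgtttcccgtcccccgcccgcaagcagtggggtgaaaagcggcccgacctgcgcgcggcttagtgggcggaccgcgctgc

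Called and uncalled members were found on both sides of this split. Of the 10 members with ERSE, all tested, 3 rose at 12 h (Hspa5, Creld2 and Syvn1) and 6 at 24 h (those and Calr, Derl3 and Dnajc3), with median log2 changes of 0.86 and 1.41. Of the 16 tested members with a promoter in the table and no ERSE, 5 rose at 12 h and 3 at 24 h, with medians of 0.48 and 0.55. Herpud1, which has ERSE-II, is counted among these 16. Outside the list, 27 genes held ERSE and 12 of them were tested. Of these 12, 4 rose and 2 fell at 12 h, and 2 rose and 1 fell at 24 h, with medians of -0.58 and 0.31. The shares of coding probes called higher were 7.26% and 3.34%, and lower 10.3% and 2.41%. Leaving out 24 h replicate 2, 6 members with ERSE rose at 12 h (with Hsp90b1, Calr and Derl3 added), Pdia6 and Canx fell, and 8 rose at 24 h, while of the 16 without it 8 rose and 2 fell at 12 h and 6 rose at 24 h (coding shares 28.4%, 20.6% and 10.2%). Sdf2l1, Dnajb9 and Xbp1 are among the members without ERSE. No test of this difference was made, as the members of either set are not replicates.

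**Figure D3:**
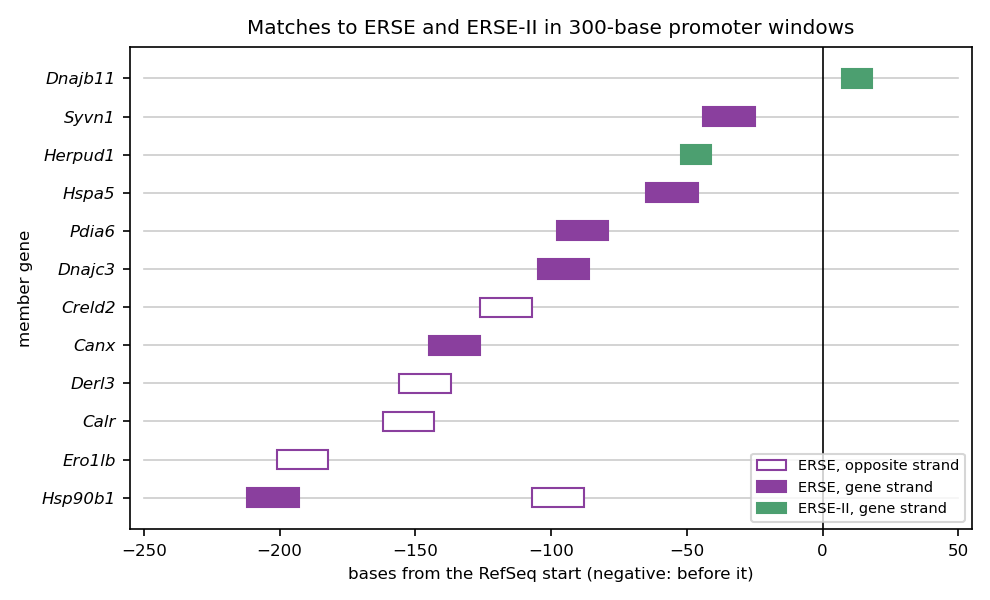
Positions of ERSE (purple; filled on the gene's strand, open on the opposite strand) and ERSE-II (green) in the windows of the 12 members that have one, in bases from the RefSeq start. The sites run from -212 in Hsp90b1 to 8 in Dnajb11, and Hsp90b1 is the only gene with a pair.

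Among the lumenal chaperones, both Hspa5 and Hspa13 rose at 12 and 24 h, while Hsp90b1 and Hyou1 were not called against 0 h. Hspa5 (BiP) binds exposed stretches of unfolded protein and keeps the sensors inactive when it is not taken up by unfolded protein. It read 5.05, 4.83 and 5.54 at 0 h, 5.18, 5.07 and 5.20 at 1.5 h, 7.03, 7.71 and 7.40 at 12 h, and 7.12, 6.45 and 7.65 at 24 h. The 6 late arrays lay above all 6 early ones. Hspa5 was 4.72-fold higher at 12 h (log2 2.24 ± 0.34, adjusted p = 0.00174) and 3.82-fold higher at 24 h (1.93 ± 0.34, 0.0101; without replicate 2, 2.24 ± 0.28, 0.00124). From 0 to 1.5 h the difference was 0.01 ± 0.34.

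Hspa13 is an Hsp70 relative attached to microsomes that lacks the peptide-binding part of other Hsp70 proteins. Its values were 0.91, 0.88 and 1.39 at 0 h, 0.96, 0.95 and 0.78 at 1.5 h, 2.96, 2.59 and 3.37 at 12 h, and 2.66, 2.78 and 3.43 at 24 h, again with no overlap between early and late arrays. It rose by log2 1.91 ± 0.30 at 12 h (adjusted p = 0.00209) and 1.90 ± 0.30 at 24 h (0.00598; without replicate 2, 1.99 ± 0.30, 0.00311). A second probe, for a non-coding transcript of the gene, gave 1.81 and 1.83 (adjusted p = 0.0027 and 0.00734). Hsp90b1 (GRP94), the Hsp90 of the endoplasmic reticulum, was 0.93 ± 0.33 above 0 h at 12 h (adjusted p = 0.0819) and 0.72 ± 0.33 at 24 h (0.242). Its 1.5 h arrays all lay below its 0 h arrays, and it rose from 1.5 to 12 h by 1.27 ± 0.33 (0.0383). Without 24 h replicate 2 it was called against 0 h at both times (adjusted p = 0.00896 and 0.02). Hyou1, which swaps the nucleotide on Hspa5, was 0.61 ± 0.52 at 12 h and -0.37 ± 0.52 at 24 h, where 1 array read 0.04 and replicate 2 read -2.55.

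The proteins that work with Hspa5 gave some of the clearest changes. Sdf2l1, which sits with Hspa5 and J-domain proteins and keeps misfolded protein soluble, read 1.51, 1.50 and 2.20 at 0 h, 1.76, 2.16 and 1.74 at 1.5 h, 3.88, 4.77 and 4.44 at 12 h, and 5.09, 4.10 and 4.76 at 24 h. The lowest late array stood at 3.88 and the highest early one at 2.20. It rose 6.18-fold at 12 h (log2 2.63 ± 0.35, adjusted p = 0.000914) and 7.52-fold at 24 h (2.91 ± 0.35, 0.0013; without replicate 2, 3.19 ± 0.31, 0.00036).

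Dnajb9 (ERdj4), a J-domain protein that brings Hspa5 to Ern1 and to clients for degradation, read 1.62, 1.81 and 2.36 at 0 h and 2.04, 1.84 and 1.68 at 1.5 h. It stood at 4.33, 4.19 and 4.25 at 12 h, the tightest of its groups, and at 2.69, 5.66 and 3.73 at 24 h, the widest. All late arrays were above the early ones. The 12 h rise was log2 2.33 ± 0.58 (adjusted p = 0.022). At 24 h it was 2.10 ± 0.58 higher (0.0625), and without replicate 2, its highest array, 1.28 ± 0.31 (0.0218), when it also fell from 12 to 24 h by 1.05 ± 0.31 (0.0479).

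Dnajc3 (p58IPK), a lumenal J-domain protein that also holds Eif2ak3 in check, changed late. Its arrays read 2.98, 3.09 and 3.36 at 0 h, 2.88, 3.09 and 3.03 at 1.5 h, 3.38, 3.64 and 3.04 at 12 h, and 4.05, 4.30 and 3.97 at 24 h. The 12 h arrays overlapped the early ones and the 24 h arrays stood above all others. It was 0.20 ± 0.24 at 12 h (adjusted p = 0.547) and rose by 0.96 ± 0.24 at 24 h (0.0443; without replicate 2, 0.86 ± 0.22, 0.0245). From 12 to 24 h it was 0.75 ± 0.24 higher (0.0586).

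Of the 5 genes for disulfide bond formation, 1 rose against 0 h. Pdia4 (ERp72), a disulfide isomerase, read 3.32, 3.00 and 3.58 at 0 h, 3.04, 3.24 and 3.08 at 1.5 h, 3.86, 5.04 and 4.19 at 12 h, and 5.12, 5.81 and 4.31 at 24 h. Late arrays lay above early ones, with a wide spread at 12 and 24 h. Pdia4 was 1.07 ± 0.40 higher at 12 h (adjusted p = 0.0993) and rose 3.44-fold at 24 h (1.78 ± 0.40, 0.0299; without replicate 2, 1.42 ± 0.36, 0.0241).

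Ero1lb, one of the oxidases that pass disulfide bonds to the isomerases, had another course. It read 3.73, 3.46 and 3.80 at 0 h, 3.26, 3.33 and 3.02 at 1.5 h, 2.90, 3.49 and 3.26 at 12 h, and 4.41, 4.67 and 4.50 at 24 h. All 1.5 h arrays were below the 0 h arrays, and all 24 h arrays above every other. It rose from 12 to 24 h by 1.31 ± 0.24 (adjusted p = 0.0125; without replicate 2, 1.24 ± 0.22, 0.00712), and against 0 h it was -0.45 ± 0.24 at 12 h (0.217) and 0.86 ± 0.24 at 24 h (0.0646; without replicate 2, 0.79 ± 0.22, 0.0354).

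P4hb, the classical protein disulfide isomerase, was 0.11 ± 0.27 at 12 h and -0.01 ± 0.27 at 24 h, and Pdia3 (ERp57), its partner for glycoproteins, 0.35 ± 0.31 and 0.15 ± 0.31. Pdia6 was -1.23 ± 0.51 at 12 h (adjusted p = 0.124; 0.0233 without 24 h replicate 2), with all 12 h arrays below all 0 h arrays. On 1.5 h replicate 1, which shares the slide of the 0 h arrays, Pdia6 read 1.57, and on 1.5 h replicates 2 and 3, on the slide of 12 h replicates 1 and 2, it read 0.02 and 0.24. With slide as a fixed term its 12 h difference was 0.30 ± 0.43. The sign of this difference, which was not called in either fit, turned with the slide term.

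The 2 lectin chaperones, which hold newly made glycoproteins until they fold, had 1 call between them against 0 h. Calr, the soluble one, read 3.24, 3.91 and 3.40 at 0 h, 3.61, 3.48 and 3.71 at 1.5 h, and 4.13, 4.22 and 4.58 at 12 h. At 24 h it read 5.24 and 5.50 on replicates 1 and 3; its spot on replicate 2 was an outlier and was left out, so that n = 2. The 12 h and 24 h arrays lay above all arrays of 0 h and 1.5 h. Calr was 0.79 ± 0.26 higher at 12 h (adjusted p = 0.0703) and rose 3.61-fold at 24 h (1.85 ± 0.30, 0.00865; with the whole replicate 2 array left out, 1.85 ± 0.24, 0.00165), and it rose from 12 to 24 h by 1.06 ± 0.30 (0.0462). Canx, the membrane-bound one, was -0.59 ± 0.33 at 12 h (0.23; 0.0208 without 24 h replicate 2) and 0.39 ± 0.33 at 24 h, and its other 2 probes gave -0.59 and -0.63 at 12 h.

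Creld2, a secreted protein with disulfide isomerase-like activity that is strongly induced by endoplasmic reticulum stress, had the largest change at 12 h of the 32 members. Its arrays read 2.31, 2.22 and 2.97 at 0 h, 1.92, 2.47 and 1.74 at 1.5 h, 4.84, 6.08 and 5.57 at 12 h, and 5.38, 6.20 and 6.11 at 24 h. The lowest late array was 4.84 and the highest early one 2.97. It rose 7.98-fold at 12 h (log2 3.00 ± 0.38, adjusted p = 0.000797) and was likewise higher than 0 h at 24 h (3.40 ± 0.38, 0.00106; without replicate 2, 3.25 ± 0.40, 0.00124).

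**Figure D4:**
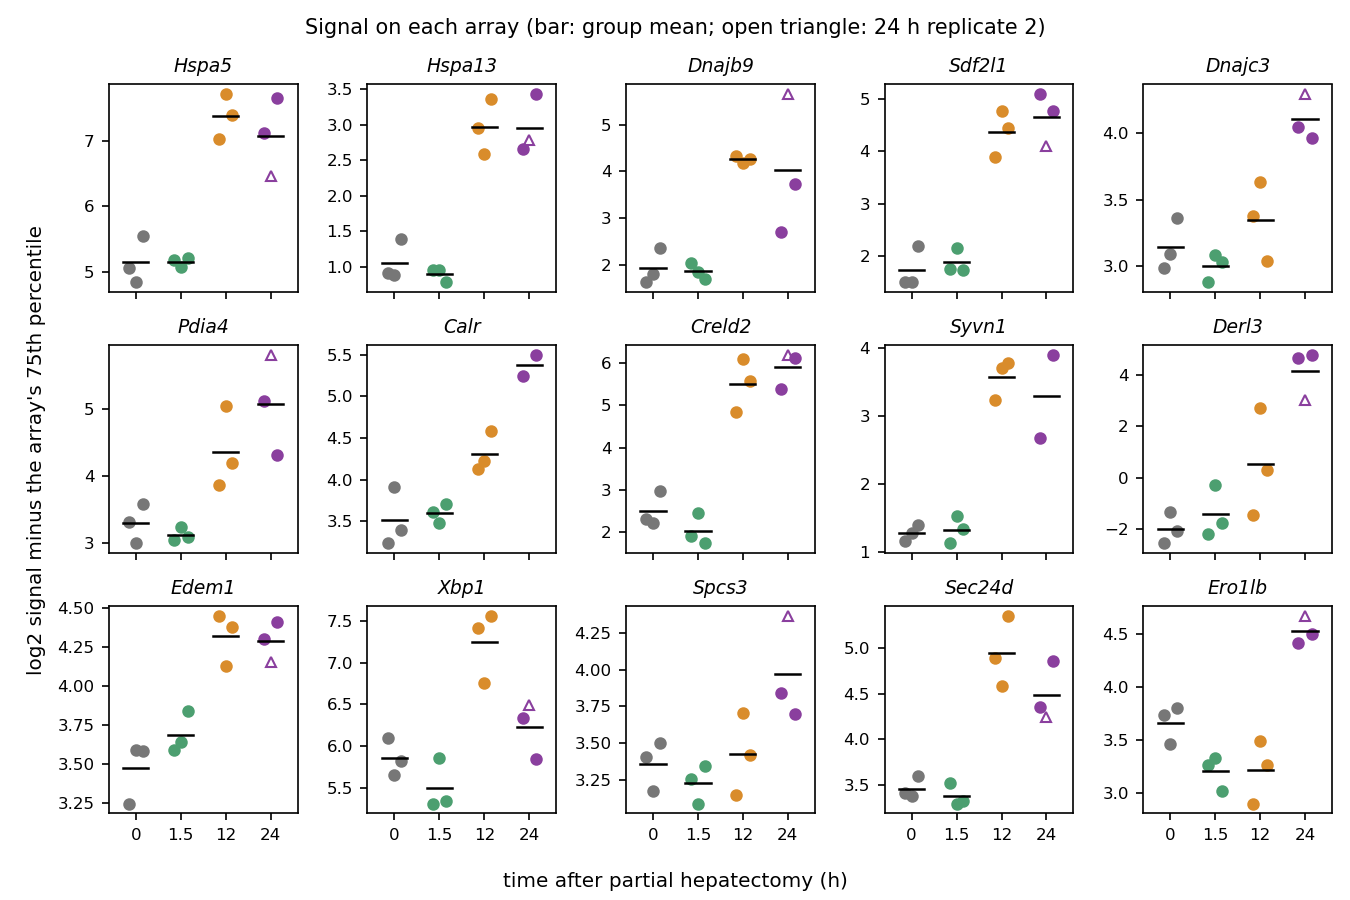
Log2 signal relative to each array's 75th percentile for 15 members over the 4 time points, 1 point per array, with the group mean as a bar and the 24 h replicate 2 array as an open triangle; each panel has its own scale. Hspa5, Hspa13, Sdf2l1, Creld2, Syvn1 and Sec24d step up between 1.5 and 12 h, Calr, Derl3, Dnajc3 and Ero1lb are highest at 24 h, and Xbp1 is highest at 12 h.

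In degradation, Syvn1, Edem1 and Derl1 rose at 12 h and Syvn1, Sel1l and Derl3 at 24 h, out of 7 genes. Syvn1 (HRD1) is the ubiquitin ligase in the membrane of the endoplasmic reticulum through which misfolded proteins leave. It read 1.16, 1.27 and 1.39 at 0 h, 1.12, 1.52 and 1.33 at 1.5 h, 3.24, 3.71 and 3.78 at 12 h, and 2.68 and 3.90 on replicates 1 and 3 of 24 h (n = 2; the spot on replicate 2 was an outlier and was left out). No late array overlapped an early one. Syvn1 rose 4.93-fold at 12 h (log2 2.30 ± 0.33, adjusted p = 0.00191) and 4.04-fold at 24 h (2.01 ± 0.37, 0.0153; with the whole replicate 2 array left out, 2.01 ± 0.33, 0.00465).

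Derl3, a derlin, one of the membrane proteins thought to form the exit channel with Syvn1, had the largest change of all members. Its arrays read -2.56, -1.33 and -2.09 at 0 h, -2.21, -0.27 and -1.75 at 1.5 h, -1.44, 2.72 and 0.30 at 12 h, and 4.65, 3.04 and 4.79 at 24 h. It was well above background on all 12 arrays. The 12 h arrays were the most spread and overlapped the early ones, and the 24 h arrays lay above all others. Derl3 was 2.52 ± 0.93 higher at 12 h (adjusted p = 0.0908) and rose 71.2-fold at 24 h (6.15 ± 0.93, 0.00482; without replicate 2, 6.72 ± 0.98, 0.00282). Between 12 and 24 h it rose by 3.64 ± 0.93 (0.035; without 24 h replicate 2, 4.20 ± 0.98, 0.0205). With slide as a fixed term, the 24 h change against 0 h was 5.86 ± 2.26 (0.373).

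Edem1, a lectin that pulls mannose-trimmed glycoproteins out of the folding cycle, read 3.24, 3.59 and 3.59 at 0 h, 3.59, 3.64 and 3.84 at 1.5 h, 4.45, 4.13 and 4.38 at 12 h, and 4.30, 4.15 and 4.41 at 24 h. The late arrays were above the early ones, and the step was small: 0.85 ± 0.22 at 12 h (adjusted p = 0.0288) and 0.82 ± 0.22 at 24 h (0.0615; without replicate 2, 0.88 ± 0.20, 0.0156). Sel1l, the partner that Syvn1 needs, was 0.46 ± 0.32 at 12 h and rose by 1.32 ± 0.32 at 24 h (0.0371; without replicate 2, 1.61 ± 0.26, 0.00471). Its second probe gave 1.39 ± 0.37 at 24 h and was not called (0.0565).

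Derl1 rose by 1.33 ± 0.37 at 12 h (adjusted p = 0.0347) from a dim signal, -5.28 to -4.32 at 0 h with 2 of 3 arrays well above background. It had already stood at -4.23, -3.45 and -3.17 at 1.5 h, above all 0 h arrays (1.07 ± 0.37, 0.661). With slide as a fixed term its 12 h change was 0.58 ± 0.53. Derl2 was -0.92 ± 0.44 at 12 h (0.171; 0.0085 without 24 h replicate 2) and 0.04 ± 0.44 at 24 h. Herpud1, a membrane protein that gathers degradation complexes and responds to stress through ERSE-II, was 0.37 ± 0.35, 0.30 ± 0.35 and 0.39 ± 0.35 at the 3 times after surgery, none of them called.

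None of the 3 sensors was called, and Xbp1, the transcription factor whose mRNA Ern1 splices, rose at 12 h. Xbp1 read 6.10, 5.66 and 5.82 at 0 h, 5.31, 5.85 and 5.34 at 1.5 h, 7.41, 6.75 and 7.56 at 12 h, and 6.33, 6.50 and 5.85 at 24 h. All 12 h arrays lay above every other array, and the 24 h arrays overlapped those of 0 h. Xbp1 rose 2.6-fold at 12 h (log2 1.38 ± 0.30, adjusted p = 0.0122) and was 0.37 ± 0.30 above 0 h at 24 h (0.522; without replicate 2, 0.23 ± 0.30, 0.632). From 12 to 24 h it was -1.02 ± 0.30 (0.0503), and without replicate 2 it fell by 1.15 ± 0.30 (0.0293). The probe measures total Xbp1 RNA, not its splicing. Ern1 was -0.51 ± 0.33 at 12 h and -0.03 ± 0.33 at 24 h, Atf6 -0.51 ± 0.39 and -0.38 ± 0.39, and Eif2ak3 0.50 ± 0.33 and 0.55 ± 0.33. None of these differences passed the threshold; without 24 h replicate 2, Ern1 had fallen (0.0422) and Eif2ak3 risen (0.0388) at 12 h.

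None of the 4 genes for entry and signal peptide cleavage was called in the 5 comparisons of the fit described above. Spcs3 was called higher at 24 h after normexp correction with quantile normalization, as were 4.36% of all probes. With array weights Spcs3 and Sec61b were called higher at 24 h, as were 30.4% of all probes. That fit also called Sec61b, Ssr1 and Spcs3 higher from 12 to 24 h, with 22.6% of all probes. The smallest adjusted p belonged to Spcs3, a subunit of signal peptidase, at 24 h (0.21). Spcs3 read 3.40, 3.18 and 3.50 at 0 h, 3.26, 3.09 and 3.35 at 1.5 h, 3.15, 3.71 and 3.42 at 12 h, and 3.84, 4.37 and 3.70 at 24 h. The 24 h arrays lay above those of 0 h but not above all of those of 12 h, and the difference from 0 h was 0.61 ± 0.26 (without replicate 2, 0.41 ± 0.21). Sec61a1, the channel, was 0.23 ± 0.35 at 12 h and 0.36 ± 0.35 at 24 h, its small subunit Sec61b 0.11 ± 0.27 and 0.54 ± 0.27, and Ssr1, of the complex beside the channel, -0.10 ± 0.31 and 0.27 ± 0.31.

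Both COPII coat genes stood higher at 12 h. Sec24d, which picks cargo, read 3.41, 3.38 and 3.59 at 0 h, 3.52, 3.29 and 3.33 at 1.5 h, 4.89, 4.59 and 5.36 at 12 h, and 4.36, 4.24 and 4.86 at 24 h. Late and early arrays did not overlap. Sec24d rose 2.8-fold at 12 h (log2 1.48 ± 0.27, adjusted p = 0.00473) and was 1.03 ± 0.27 higher at 24 h (0.0519; without replicate 2, 1.15 ± 0.25, 0.0148). Sec23b, its partner in the inner coat, was 1.46 ± 0.45 higher at 12 h (0.0509) and 1.44 ± 0.45 at 24 h (0.093; without replicate 2, 0.88 ± 0.31, 0.074), and rose from 1.5 to 12 h by 1.71 ± 0.45 (0.0397).

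Between 12 and 24 h, 3 members rose (Ero1lb, Calr and Derl3, against 8.02% of coding probes) and 0 fell (against 5.25%). By unadjusted p under 0.05, 7 members were higher and 1 lower, and 12517 of 31172 probes passed that limit in either direction. Without 24 h replicate 2, 5 rose (against 10.9%), with Sel1l and Ern1 added, and Dnajb9 and Xbp1 fell (against 6.62%). Without 12 h replicate 1 no member was called by limma (against 1.07% of all probes higher and 0.205% lower). Without 24 h replicate 3 it was 6 higher and 0 lower (against 10.4% and 23.7%), and with quantile normalization 5 higher and 1 lower, Xbp1 (against 9.65% and 7.46%). The median change of the members was 0.13, and that of the coding probes -0.14.

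Other genes of the same pathways were taken from a list. Of 85 listed, 84 were tested; 8 rose and 4 fell at 12 h, and 13 rose and 0 fell at 24 h, with median log2 changes of 0.21 and 0.41. That is 9.52% higher and 4.76% lower at 12 h and 15.5% higher at 24 h, beside the coding shares of 7.26%, 10.3% and 3.34%. Without 24 h replicate 2, 22 rose and 11 fell at 12 h (26.2% and 13.1%, against 28.4% and 20.6% of coding probes), and 23 rose and 3 fell at 24 h (27.4% higher, against 10.2%). In the PERK and ATF4 arm, 1 of 7 rose at 12 h, Chac1, a glutathione-degrading enzyme (2.50 ± 0.65, adjusted p = 0.0256), and 0 at 24 h. When 24 h replicate 2 was left out, 5 of these 7 rose at 12 h (Ddit3, Ppp1r15a, Asns, Chac1 and Eif2s1) and 0 at 24 h. Among 7 other transcription factors and proteases of the endoplasmic reticulum, Creb3 (1.17 ± 0.23, 0.00636) and Creb3l3 (1.32 ± 0.28, 0.0127) rose at 12 h, and Creb3l3, the liver factor CREBH, also at 24 h (1.75 ± 0.31, 0.0137). Of 16 other folding enzymes and Hspa5 partners, the sulfhydryl oxidase Qsox1 rose at both times (1.80 ± 0.26, 0.00143, and 1.72 ± 0.26, 0.00493) and Dnajc10, a reductase with a J-domain, at 24 h (1.65 ± 0.29, 0.0114).

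Entry into the endoplasmic reticulum had 3 genes that rose at 12 h and 5 at 24 h. Of 15 further genes of the translocon and signal peptidase, 1 fell at 12 h; Srpr, the receptor for the signal recognition particle, rose at 12 h by 1.15 ± 0.29 (adjusted p = 0.0229), Sec62 fell by 1.59 on the log2 scale (0.00951), and Ssr3 (1.31 ± 0.25, 0.0146) and Spcs1 (1.46 ± 0.27, 0.0165) rose at 24 h. Of 17 further degradation genes, 1 rose and 2 fell at 12 h, among them the ubiquitin-conjugating enzyme Ube2g2 (1.16 ± 0.23, 0.00713) and the ubiquitin ligase Rnf139 (-1.54 ± 0.30, 0.00699). At 24 h 3 rose, among them Ube2g2 (0.99 ± 0.23, 0.0317) and the mannosidase-like Edem3 (1.25 ± 0.31, 0.0398). In N-glycosylation, 1 of 11 fell at 12 h, Uggt1, which tags unfolded glycoproteins for another round of folding (-1.19 ± 0.35, 0.043), and 1 rose at 24 h, the oligosaccharyltransferase subunit Dad1 (1.19 ± 0.22, 0.0139). In COPII export, 0 of 11 were called at 12 h and 1 rose at 24 h, the cargo receptor subunit Mcfd2 (1.43 ± 0.34, 0.035). With 24 h replicate 2 left out, 4 and 3 of the transcription factors and proteases were higher at 12 and 24 h (1 and 0 lower). It was 3 and 5 for the folding enzymes (1 and 0 lower) and 5 and 9 for the translocon (3 and 1 lower). Degradation had 3 and 3 (5 and 1 lower), N-glycosylation 1 and 2 (1 and 0 lower) and COPII export 1 and 1 (0 and 1 lower). The coding shares in that fit were 28.4% and 10.2% higher and 20.6% and 6.62% lower.

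**Figure D5:**
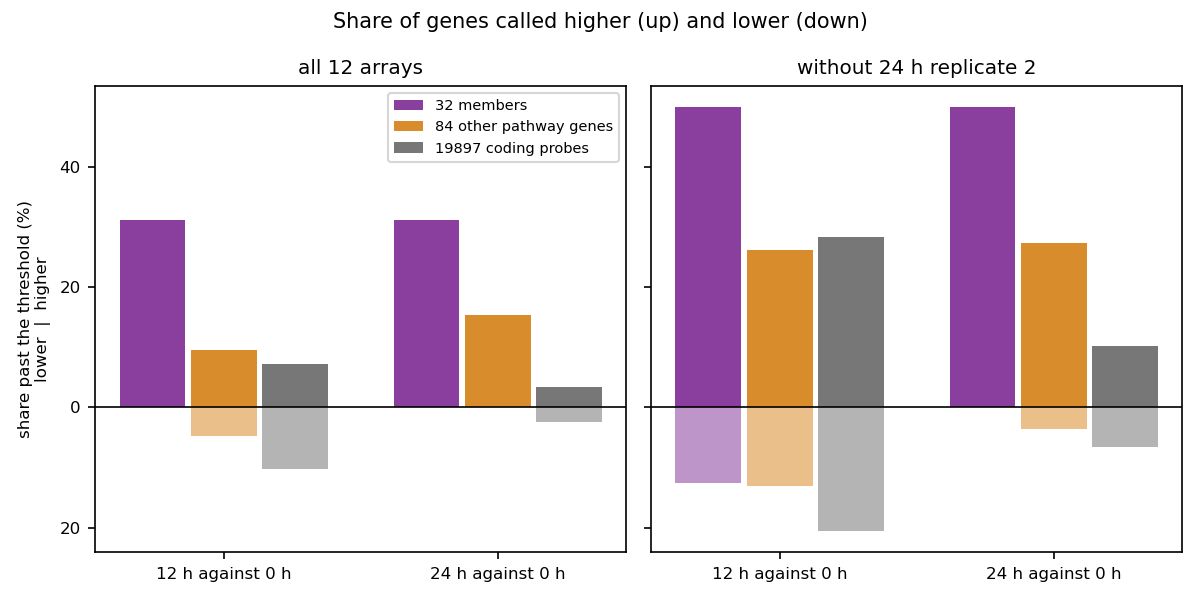
Share of genes called higher (bars up) and lower (pale bars down) against 0 h for the 32 members (purple), the 84 other genes of the pathways (orange) and the 19897 coding probes (grey), with all 12 arrays (left) and without 24 h replicate 2 (right). With all arrays 31.2% of the members were called higher at each time, against 7.26% and 3.34% of coding probes; without that array it was 16 of 32, against 28.4% and 10.2%.

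Markers of other cells were read beside these results. All 7 hepatocyte markers were well above background on all 12 arrays, and 1 of them, Ttr, fell at 12 h and at 24 h. Plasma cells and pancreatic acinar cells, both rich in endoplasmic reticulum, had none of their tested markers (8 and 9) called higher at 12 or 24 h; Cd79b and Ms4a1, of B cells, fell at 12 h and the acinar Cela2a at 24 h. Cd79a was well above background on 0 arrays and Igj on 4. The summed signal of the plasma cell and B cell markers, in units of the array's 75th percentile, ranged from 2.2 to 2.46 at 0 h, 3.25 to 3.98 at 12 h and 2.87 to 4.44 at 24 h, and that of the acinar markers from 7.18 to 9.68, 4.59 to 7.39 and 3.08 to 7.14. In the fit without 24 h replicate 2, 3 plasma cell and B cell markers (Igj, Sdc1 and Prdm1) and 2 acinar markers (Ctrb1 and Cel) were called higher at 12 h while Cd79b, Ms4a1 and Cela1 fell. At 24 h in that fit Sdc1 and Cpb1 were called higher and Cd79b and Cela2a lower. That fit called 28.4% of coding probes higher and 20.6% lower at 12 h, and 10.2% and 6.62% at 24 h. With all arrays these shares were 7.26% and 10.3% at 12 h, and 3.34% and 2.41% at 24 h. Of 8 tested neutrophil markers, 2 (S100a8 and S100a9) rose at 1.5 h, 6 at 12 h and 5 at 24 h. Their sum was 1.67 to 2.25 at 0 h, 8.1 to 11.3 at 1.5 h, 31.6 to 40.7 at 12 h and 27.1 to 42.3 at 24 h. Of the macrophage, endothelial, stellate, bile duct and T cell lists (5 to 8 genes tested each), 1, 1, 0, 1 and 0 genes rose at 12 h and 1, 1, 1, 1 and 0 at 24 h. In the same order 2 (Csf1r and Vsig4), 1 (Kdr), 1 (Lrat), 0 and 0 fell at 12 h, and 0 in each at 24 h. In the fit without 24 h replicate 2, the counts that fell at 12 h were 4, 2, 3, 0 and 0, and 1 rose in each list. At 24 h in that fit the counts that rose were 1, 2, 2, 1 and 0, and 0 fell in each. At 0 h and 24 h the summed signal was 963 to 1000 and 506 to 820 for the hepatocyte markers. It was 31.5 to 52.6 and 49.2 to 76.4 for macrophage and 28.9 to 31.2 and 27.7 to 36.5 for endothelial markers. Stellate markers summed to 16.4 to 21.3 and 26.3 to 62.7, and bile duct markers to 12.9 to 15 and 16.5 to 27.3. For T cells it was 6.82 to 7.81 and 3.26 to 5.85. The part of any of these cell types in the members' changes was not tested.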

How the data were processed

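Each of 12 livers was measured on 1 one-colour array. Per the file headers, images were read with Agilent Feature Extraction 10.5.1.1; the deposited intensity of a spot is its processed signal, and probe positions refer to mm9. The authors' deposited table of log2 values, whose normalization is not given in the sources used here, served as an alternative. From the intensities, log2 signal minus each array's 75th percentile was computed without control and outlier spots, spots of a probe were averaged, and the 31172 of 37246 probes well above background on at least 3 arrays were kept. limma 3.58.1 (R 4.3.3) fitted 4 group means to all 12 arrays with moderated variances; p-values are two-sided, Benjamini-Hochberg adjusted over all kept probes, threshold 0.05. The fit was tested on simulated data with independent noise on each array. That simulation held no slide effect and no deviant array, so it does not test the fit under either. Promoters were searched with Python 3.11.15 and pandas 2.3.3. The series' design text gives 3 mice per time point; the number of arrays limits the precision. Members and lists were chosen with earlier results of these data known. Members described array by array are, within each role group, at most 3 that passed against 0 h, by smallest adjusted p, or in a group with no call its lowest; from each further pathway list up to 2 called genes a time are named. Ero1lb was added after its values were seen. Alternatives covered background correction, normalization, probe filters, moderation, array weights, slide and replicate blocks, and single arrays left out.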

Additional observations from a re-analysis of the deposited data

How the results depend on the processing

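The 33 member results called in the fit described above were followed under up to 27 settings, and none changed sign. Of their 864 values, 707 kept direction and side of the threshold and 157 kept direction only, and 8 results held under every setting. Results not called in that fit were not part of this count. One of them, Pdia6 at 12 h, turned its sign with the slide term, as given above. Called members moved with the spread. Array weights gave 5 at 1.5 h (1 higher, 4 lower), 21 at 12 h (16 and 5), 21 at 24 h (20 and 1) and 21 from 12 to 24 h (14 and 7), while 42.1%, 63.8%, 50% and 60.9% of all probes were called. Slide as a fixed term gave 3 at 12 h (4.17% of all probes) and 0 at 24 h (0.266%), and as a random term 1 at 24 h (0.924%). Fits of only the 2 groups compared gave 18 at 12 h (49.7% of all probes), 2 at 24 h (0.382%) and 0 from 12 to 24 h (0 probes). Leaving out 1 array gave 0 to 0 at 1.5 h, 6 to 20 at 12 h and 5 to 16 at 24 h. From 1.5 to 12 h it gave 7 to 14, and from 12 to 24 h 0 to 7. The share of all probes called moved too, from 0% to 0.568% at 1.5 h, 7.21% to 49% at 12 h and 1.33% to 17% at 24 h. It ran from 4.03% to 20.2% between 1.5 and 12 h and from 1.27% to 34.1% between 12 and 24 h. Leaving out 24 h replicate 2 with 1.5 h replicate 1, chosen after seeing the data, gave 3 at 1.5 h, 20 at 12 h, 16 at 24 h and 10 from 12 to 24 h, against 24.8%, 55.8%, 22.4% and 26.9% of all probes. From 12 to 24 h the count was 5 with normexp (16.1% of all probes), 6 with quantile normalization (17.1%), 6 with the authors' values (28.5%), 6 with probes well above background on all 12 arrays (22.7%), 5 with trended robust moderation (14.7%) and 1 within the slide, where 12 h has a single array (0.0834%). With the replicate number as a block it was 1 (4.1% of all probes). That fit gave 9 at 12 h (11.6%), 8 at 24 h (3.72%) and 8 from 1.5 to 12 h (6.18%). Same-numbered arrays had deviations correlated from -0.423 to 0.413. Differently numbered arrays were not compared with them, so these values cannot tell whether the numbers pair the mice. The members' median became 0.57 at 24 h with normexp, 0.54 from 1.5 to 12 h without a filter on dim probes and 0.30 from 12 to 24 h with quantile normalization. Leaving out 1 array, it ranged from -0.22 to -0.09 at 1.5 h, 0.51 to 0.63 at 12 h, 0.69 to 0.84 at 24 h, 0.57 to 0.67 from 1.5 to 12 h and 0.0906 to 0.334 from 12 to 24 h. The causes were not tested. Signal over background limits Dnajb11 and Manf, which gave no test, and Derl1 and Atf6, which were well above background on 11 of 12 arrays.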
